A study of Mus musculus with 6 samples.

Results

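The core spliceosome and hnRNP genes are described here in the spleen of Was knockout and wild-type mice. They were taken by symbol from the deposited expression table, as every gene whose symbol begins with Hnrnp, Sf3a, Sf3b, Snrp, Prpf or U2af, is not marked as a pseudogene by an ending in -ps, and has a mean normalized count of at least 1 over the 6 libraries. This gave 59 genes of the 26452 in the table: 20 Hnrnp, 13 Snrp, 9 Sf3a and Sf3b, 13 Prpf and 4 U2af genes. Of 60 symbols with these beginnings, 1 ended in -ps, Hnrnpa1l2-ps2, with a mean normalized count of 3.37. All 59 were above the minimum, the lowest being Snrpn with a mean of 43.0 and Prpf40b with 122, and the median over the 59 was 3143. RNA came from the spleens of 10-week-old male mice, 3 Was -/- (129S6/SvEvTac-Wastm1Sbs/J) and 3 129S6/SvEvTac wild types, and each library is 1 mouse. Was encodes an activator of actin assembly in blood cells. The labels give the targeted allele by name only and name no other allele, agent or treatment, and the comparison asks how the knockout spleen transcriptome differs from the wild-type one.

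The label held for all but 2 of the rows. Snrpert (ENSMUSG00000082044) is annotated as a processed pseudogene in GENCODE M21, and its symbol points to Snrpe, whose reads may be counted there. The table gives the symbol U2af1l4 to 2 rows, of which ENSMUSG00000109378 is named Gm49396 in GENCODE, a gene model that runs from U2af1l4 into its neighbour Igflr1. It is called Gm49396 here, and counts without these 2 rows cover 57 genes.

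The spliceosome removes introns from pre-mRNA. U1 snRNP binds the splice donor, the U2AF dimer binds the pyrimidine tract and the AG of the splice acceptor, and U2 snRNP, with its SF3a and SF3b subcomplexes, takes the branch point. The U4/U6.U5 tri-snRNP then joins, with PRPF proteins in its core, and each of the U1, U2, U4 and U5 snRNPs carries a ring of Sm proteins encoded by Snrp genes. hnRNP proteins coat the nascent transcript and favour or block splice sites. In lymphoid tissue the best-known target is CD45, the product of Ptprc, whose variable exons are skipped under the control of hnRNP LL and other RNA-binding proteins.

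Library and animal names are those of the labels. A normalized count is a read count divided by the size factor of its library, and values are always given in the order KO451, KO452, KO457 and WT453, WT454, WT455. Reads assigned to genes ranged from 30661759 to 38402758. Was itself had normalized counts of 508, 407 and 409 in knockout and 4142, 6561 and 6279 in wild-type libraries (log2 fold change -3.66 ± 0.25 SE; between -3.87 and -3.53 when any 1 library was left out), so each library carried the Was level of its label. WT453 stood apart from the other wild types in many genes. Its 8 neutrophil markers summed to 92518 CPM (reads scaled to a common library total), against 5233 and 10656 in the other wild types and 12439 to 57227 in knockout libraries. Its 13 mitochondrial mRNAs summed to 13471 CPM, against 60521 to 67290.0 and 54085 to 78901, and its 12 immediate early and stress genes to 1971 CPM, against 575 to 675 and 396 to 530.1. Of the other marker lists, erythroid genes (11 of 12 measured) summed to 28066 to 83251 CPM in knockout and 2458 to 12610.0 CPM in wild-type libraries. B cell genes (8 of 8) summed to 1372 to 2881 and 1440.1 to 4969 CPM, T cell genes (8 of 8) to 435 to 862 and 487 to 1368 CPM, and red pulp macrophage genes (7 of 7) to 3665 to 6365 and 1061 to 3711 CPM. None of the measured genes of these lists was at 0 in any library, so B cell, T cell and red pulp macrophage markers of spleen were present in all 6. In RNA of a whole spleen, fewer cells of a type and less RNA per cell cannot be told apart. The part of these differences in the results below was not tested, and many of the results are given with and without WT453.

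The 59 genes took similar shares of the reads in both genotypes. They held 1.002%, 0.983% and 0.958% of the reads assigned to genes in the knockout libraries and 1.15%, 1.004% and 1.007% in the wild-type libraries. WT453 had the highest share and the other wild types lay just above the knockout range. None of the 59 passed the test between genotypes: limma on the log2 normalized counts, with Benjamini-Hochberg adjustment over all 22071 genes tested and a threshold of 0.05, gave adjusted p between 0.387 and 0.997. The same test called 2 of all genes, which is 0.00906%. Before adjustment, 3 of the 59 (5.08%) had a limma p under 0.05, where 11.0% of all genes tested did. These were Prpf38b, Prpf40b and Gm49396, all with lower values in knockout spleens, where 5.46% of all genes were past this level in that direction. With WT453 left out, 13 of the 59 (22.0%) had higher and 3 (5.08%) lower values at an unadjusted p under 0.05. This was so for 8.53% and 9.67% of all genes, and for 12.3% and 12.4% of genes with a mean normalized count of at least 100. Still none of the 59 passed after adjustment. Limma voom on the recovered reads, chosen after seeing the data, also called none of the 59, with 2 (3.39%) at an unadjusted p under 0.05, against 10.6% of all genes. With library quality weights 12 (20.3%) were at that level, against 22.6% of all genes.

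As a set the genes varied little between and within genotypes, apart from the Snrp class within genotypes. Their median absolute log2 fold change was 0.18, against 0.44 over all genes tested and 0.31 over the 11881 genes with a mean normalized count of at least 100. In the 5 lists of other splicing genes described below it was between 0.14 and 0.30, so small values were not particular to the 59. The median SD within groups of the 59 on the log2 scale was 0.22, against 0.61 over all genes tested and 0.37 over genes with a mean of at least 100. It was 0.37 for the 13 Snrp genes and 0.43 for the 7 Sm ring genes among them, and between 0.16 and 0.23 in the other classes. For 49 of the 59 (83.1%) the 95% interval of the log2 fold change lay within a 2-fold difference either way. This was so for 24.7% of all genes and 45.4% of genes with a mean of at least 100. In the 5 lists of other splicing genes described below the share was between 55.6% and 82.9%. A log2 fold change past 1 was seen in 2 of the 59 (3.39%), Prpf40b and Gm49396, against 22.4% of all genes and 9.65% of genes with a mean of at least 100.

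Genes with a higher mean in knockout spleens outnumbered those with a lower one. Of the 59, 39 (66.1%) had a log2 fold change above 0, against 47.7% of all genes tested and 51.9% of genes with a mean of at least 100. Without WT453 it was 43, against 48.0% and 51.2%. The median was 0.09, against -0.03 over all genes, and 33 of the 59 were above 0 after quantile normalization or without WT454, and 32 without WT455. These directions depend on the scaling of the libraries, and scaling by total reads was not tried. All 3 knockout values lay on 1 side of all 3 wild-type values in 10 of the 59 (16.9%). This was so for 19.5% of all genes and 24.0% of genes with a mean of at least 100. Of the 10, 6 had higher values in knockout spleens (10.2%, against 9.54% and 13.2%), among them Hnrnpul1, Hnrnph2, Snrpc, Snrpd2 and U2af1l4. Prpf6, Prpf38b, Prpf40b and Gm49396 had lower ones (6.78%, against 9.94% and 10.8%). Without WT453, 26 of the 59 (44.1%) lay above and 7 (11.9%) below the 2 remaining wild types, against 19.2% and 21.2% of all genes and 27.1% and 25.3% of genes with a mean of at least 100.

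**Figure D1:**
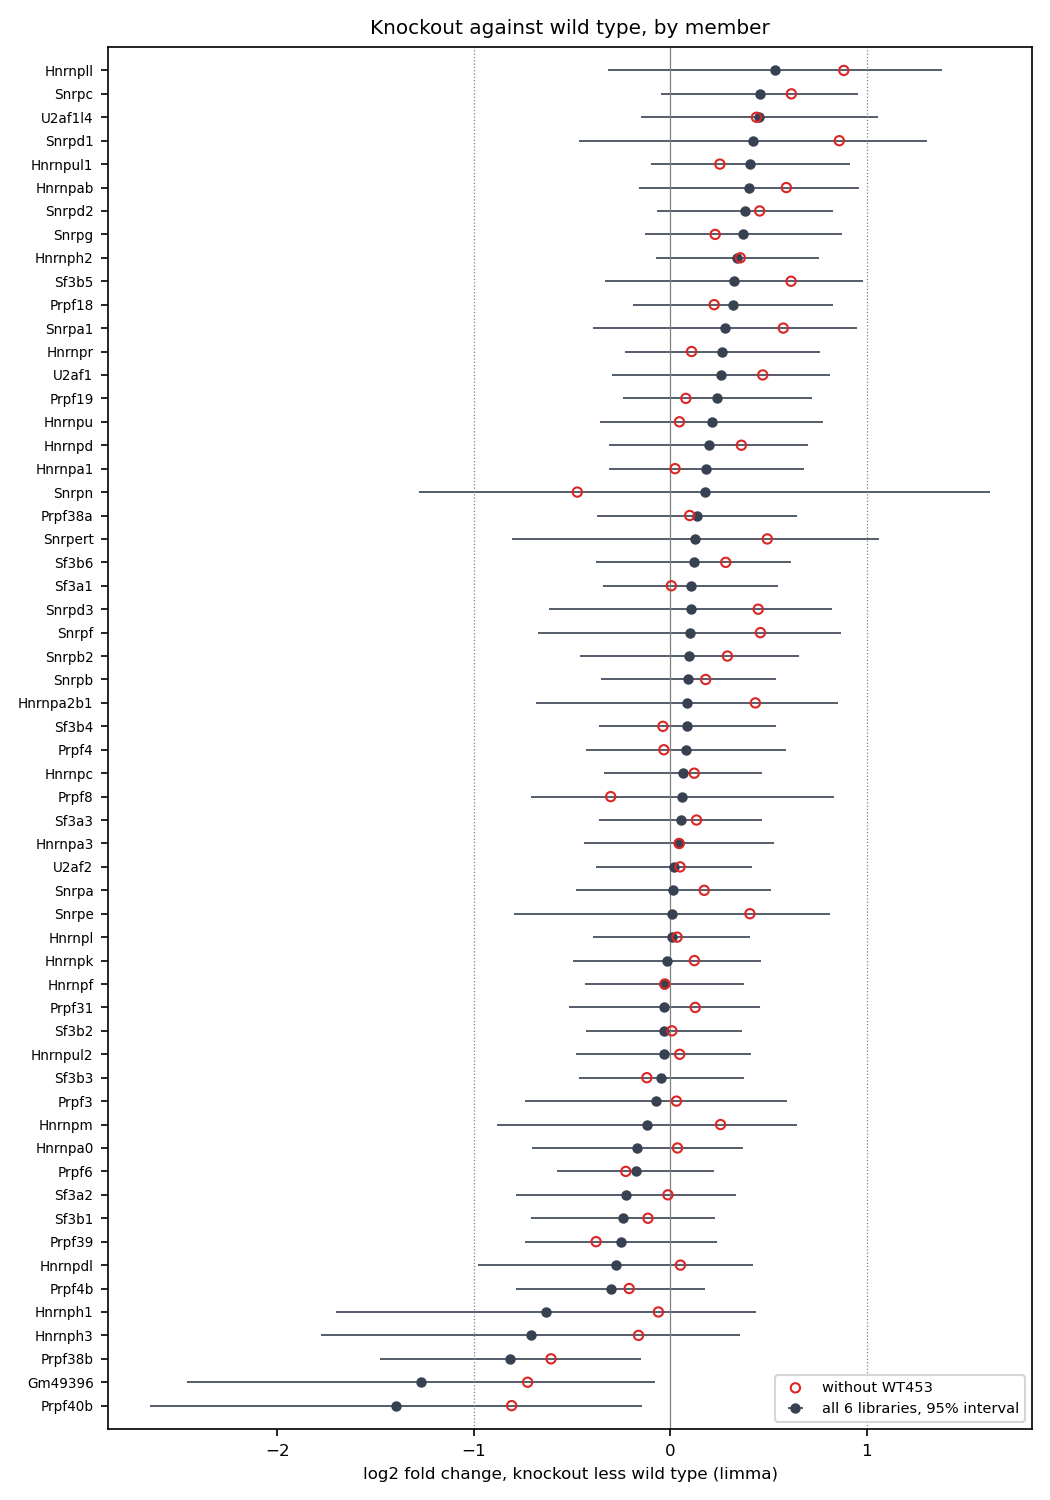
Log2 fold change of each of 58 of the 59 genes, knockout less wild type (horizontal axis), with filled points and bars for the limma estimate and its 95% interval over all 6 libraries and open circles for the estimate without WT453. Bars of 3 genes, Prpf38b, Prpf40b and Gm49396, do not reach 0, and none of these 3 passed after adjustment over all genes.

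The RefSeq promoter windows of 3 of these genes are shown because the genes lead the list in each direction: Prpf38b had the smallest p among lower values, and Snrpc and Snrpd2 had the smallest p among higher values. The sequences are the 250 bases before the start of each gene in RefSeq (GRCm38.p6), on the strand of the gene, at chr3:108911730-108911979 (minus strand), chr17:27839837-27840086 and chr7:19149588-19149837 (both plus strand). The gene positions given elsewhere are GENCODE spans, whose starts differ from those of RefSeq. The Prpf38b window lies wholly upstream of its GENCODE span, the Snrpd2 window runs past the start of its span, and the Snrpc window lies inside its span. Capitals mark matches on either strand to the 8 motifs searched.
Prpf38b: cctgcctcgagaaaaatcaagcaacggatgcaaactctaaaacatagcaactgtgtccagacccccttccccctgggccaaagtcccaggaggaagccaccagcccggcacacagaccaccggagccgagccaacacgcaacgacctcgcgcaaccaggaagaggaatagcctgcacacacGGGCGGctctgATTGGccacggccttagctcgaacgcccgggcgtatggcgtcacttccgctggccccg
Snrpc: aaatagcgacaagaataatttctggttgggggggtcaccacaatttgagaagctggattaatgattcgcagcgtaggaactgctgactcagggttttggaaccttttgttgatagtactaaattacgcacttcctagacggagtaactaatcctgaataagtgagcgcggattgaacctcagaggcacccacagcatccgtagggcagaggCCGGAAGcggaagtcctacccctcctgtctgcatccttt
Snrpd2: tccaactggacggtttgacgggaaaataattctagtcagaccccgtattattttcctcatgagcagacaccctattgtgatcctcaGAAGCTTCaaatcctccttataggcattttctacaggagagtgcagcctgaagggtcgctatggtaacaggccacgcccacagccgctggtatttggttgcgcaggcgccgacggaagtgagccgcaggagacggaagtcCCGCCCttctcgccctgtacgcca
The Prpf38b window holds a GGGCGG box, the letters bound by Sp factors, and an ATTGG, the CCAAT box on the other strand. In the Snrpc window the match is CCGGAAG, a motif of ETS factors. Snrpd2 has a GGGCGG box on the other strand and a GAANNTTC, the core of a heat shock element. Windows were at hand for 48 of the 58 distinct symbols. CCGGAAG was found in 14 of the 48 (29.2%), against 16.8% of the 8732 genes with a window and a mean normalized count of at least 100. ATTGG was in 26 (54.2%, against 41.0%) and GGGCGG in 30 (62.5%, against 63.6%). The E-box CACGTG was in 7 (14.6%, against 10.3%), GAANNTTC in 5 (10.4%, against 6.07%), TATAAA in 4 (8.33%, against 7.83%) and the cyclic AMP element TGACGTCA in 2 (4.17%, against 3.06%). The NRF1 motif searched was in 0 of the 48, against 2.004%. A match describes the letters of the window and not a bound site.

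Per kilobase of exon, the levels of the 59 genes spanned from 19.9 to 6775 normalized counts. Exon length was that of the merged exons of all GENCODE transcripts of a gene, for example 3841 bases for Sf3b5 and 6521 for Snrpc. The order of genes therefore depends on the annotated length as well as on the reads. The highest levels per kilobase belonged to hnRNP genes: Hnrnpab at 6775, Hnrnpa1 at 6189.8, Hnrnpf at 5389, Hnrnpa2b1 at 4247 and Hnrnpa3 at 3428. Of these, Hnrnpab shares 29.1% of its exonic bases with Phykpl on the other strand, and Hnrnpf shares 26.5%, so that their levels are uncertain where the strand of the reads was not used. The 7 Sm ring genes had, per kilobase, Snrpd2 at 1045, Snrpd1 at 1239, Snrpd3 at 1293, Snrpg at 1309, Snrpe at 1744, Snrpb at 2671 and Snrpf at 2743. The differences among Snrpd2, Snrpd1, Snrpd3 and Snrpg were smaller than the spread of each between libraries. The Snrpf level is uncertain because 85.4% of its exonic bases overlap exons of Ccdc38 and a second gene on the other strand. SF3 genes ran from Sf3b5 at 422 to Sf3b2 at 1613 per kilobase. U2af2 at 2118 and U2af1 at 1096 stood above their relative U2af1l4 at 125 in each library. The lowest levels per kilobase were those of Snrpn at 19.9 and Prpf40b at 24.6.

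**Figure D2:**
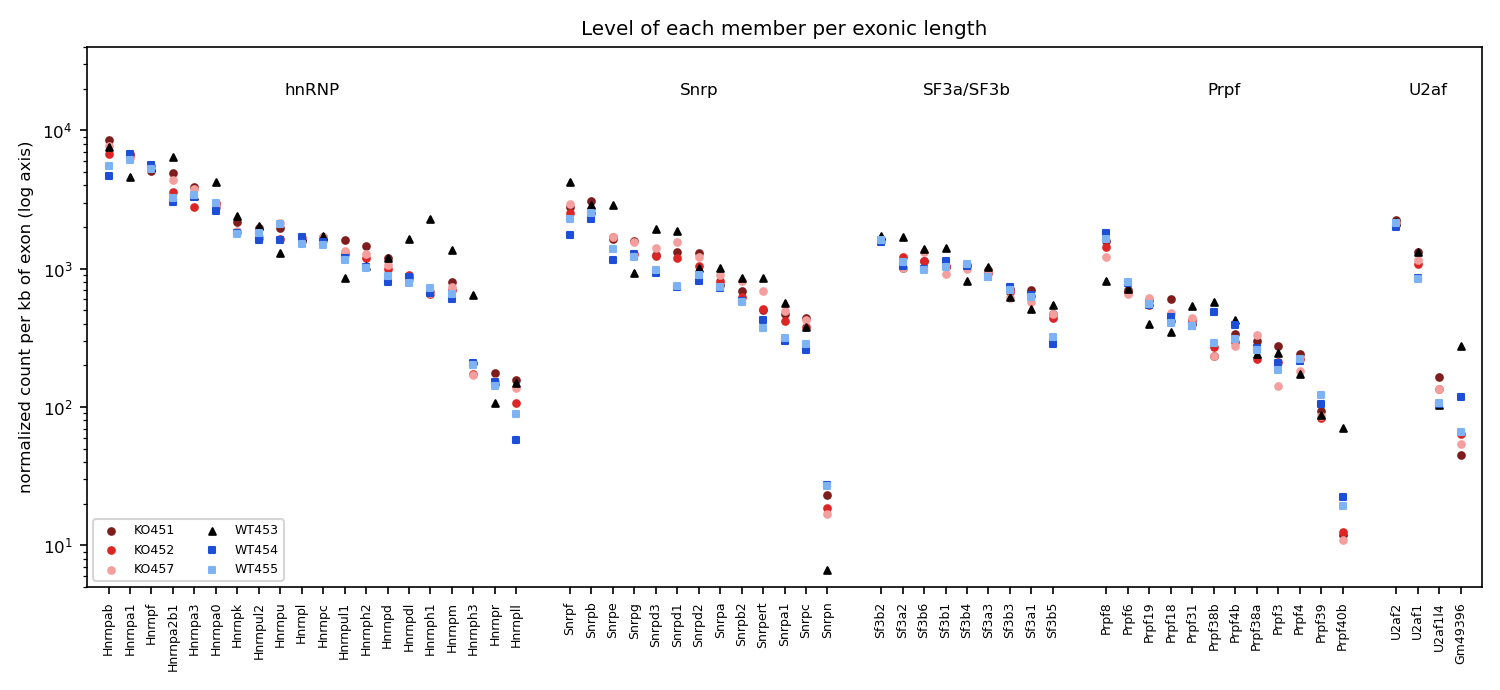
Normalized count per kilobase of exon (vertical log axis) of each of 58 of the 59 genes in each of the 6 libraries, grouped by class and sorted within it by mean level. The hnRNP class reaches from 116 (Hnrnpll) to 6775 (Hnrnpab) as means over libraries, and the black triangles of WT453 lie off the other 5 libraries in many genes.

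Among the 20 hnRNP genes, none passed the test (limma adjusted p between 0.516 and 0.995), 12 had a log2 fold change above 0 and the median was 0.05. After quantile normalization 10 of the 20 were above 0. Hnrnpa2b1 encodes a packaging protein of the core hnRNP particle that binds purine-rich RNA, and it had the highest mean of the 59, 27963. Its normalized counts were 32179, 23420.0 and 28643 in the knockout libraries and 42293, 19938 and 21303 in the wild-type libraries. WT453 was the highest library and the other wild types the lowest, with the knockouts between them (log2 fold change 0.09 ± 0.33 SE; 0.43 without WT453 and -0.04 after quantile normalization). Hnrnpu, which binds chromatin and nascent RNA, had 22725, 19148 and 24622 in the knockout libraries and 15127, 18547 and 24534 in the wild-type libraries. Its groups overlapped, with WT453 lowest and KO457 and WT455 nearly equal at the top (0.21 ± 0.24, adjusted p = 0.766, and 0.05 without WT453).

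Hnrnpul1, a relative of Hnrnpu with roles in transcription and the DNA damage response (chromosome 7, 25721165 to 25754757, minus strand), had normalized counts of 13888, 11078 and 11544 in the knockout libraries and 7356, 10270.4 and 10049.7 in the wild-type libraries. The 3 knockout values lay above the 3 wild-type values, of which WT453 was the lowest. This gave a log2 fold change of 0.41 ± 0.22, a 1.33-fold higher value in knockout spleens, with a limma adjusted p of 0.524 and a log2 fold change of 0.25 without WT453. Hnrnph2, on the X chromosome as is Was (chromosome X, 134601179 to 134607060, plus strand), encodes an H/F family protein that binds runs of G. It had 6392, 5188 and 5618 in the knockout libraries and 4597, 4479.7 and 4437 in the wild-type libraries. Here the wild types lay within a narrow range and all 3 knockouts above it (0.34 ± 0.18, adjusted p = 0.516; 0.36 without WT453).

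The other H family genes behaved differently across libraries. Hnrnph3 had 660.4, 550.0 and 535 in the knockout libraries and 2028, 658 and 637 in the wild-type libraries. WT453 was about 3 times each of the other wild types, which lay close to KO451, and the groups overlapped (-0.71 ± 0.45, adjusted p = 0.581; -0.16 without WT453). Hnrnph1, named after its values were seen, had 3988, 3835 and 3907 in the knockout libraries and 13352, 3927 and 4227 in the wild-type libraries. Again WT453 alone was high, and the other 5 libraries lay between 3835 and 4227 (-0.63 ± 0.45, and -0.06 without WT453). Hnrnpf, the family member with the most reads, ranged only from 15524 to 17096 over all 6 libraries (-0.03 ± 0.17).

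Hnrnpll, the regulator of CD45 exon skipping in lymphocytes, had the largest positive log2 fold change of the 59. Its normalized counts were 1837, 1249 and 1608 in the knockout libraries and 1731, 669.8 and 1045 in the wild-type libraries. WT454 and WT455 were the 2 lowest libraries, while WT453 lay among the knockouts, so the groups overlapped. Knockout less wild type was 0.53 ± 0.36 (limma adjusted p = 0.607) and 0.88 without WT453 (adjusted p = 0.244). B and T cell marker sums were lowest in KO451, KO457 and WT453, the libraries in which Hnrnpll was highest, and their part in its values was not tested. The remaining 12 hnRNP genes, among them the A1, A3, C, K and L genes, had log2 fold changes between -0.28 (Hnrnpdl) and 0.40 (Hnrnpab). Hnrnpc, whose protein binds runs of U, stayed between 6444 and 7443 over the 6 libraries, and Hnrnpl, whose protein binds CA-rich RNA, between 8945 and 10066.

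**Figure D3:**
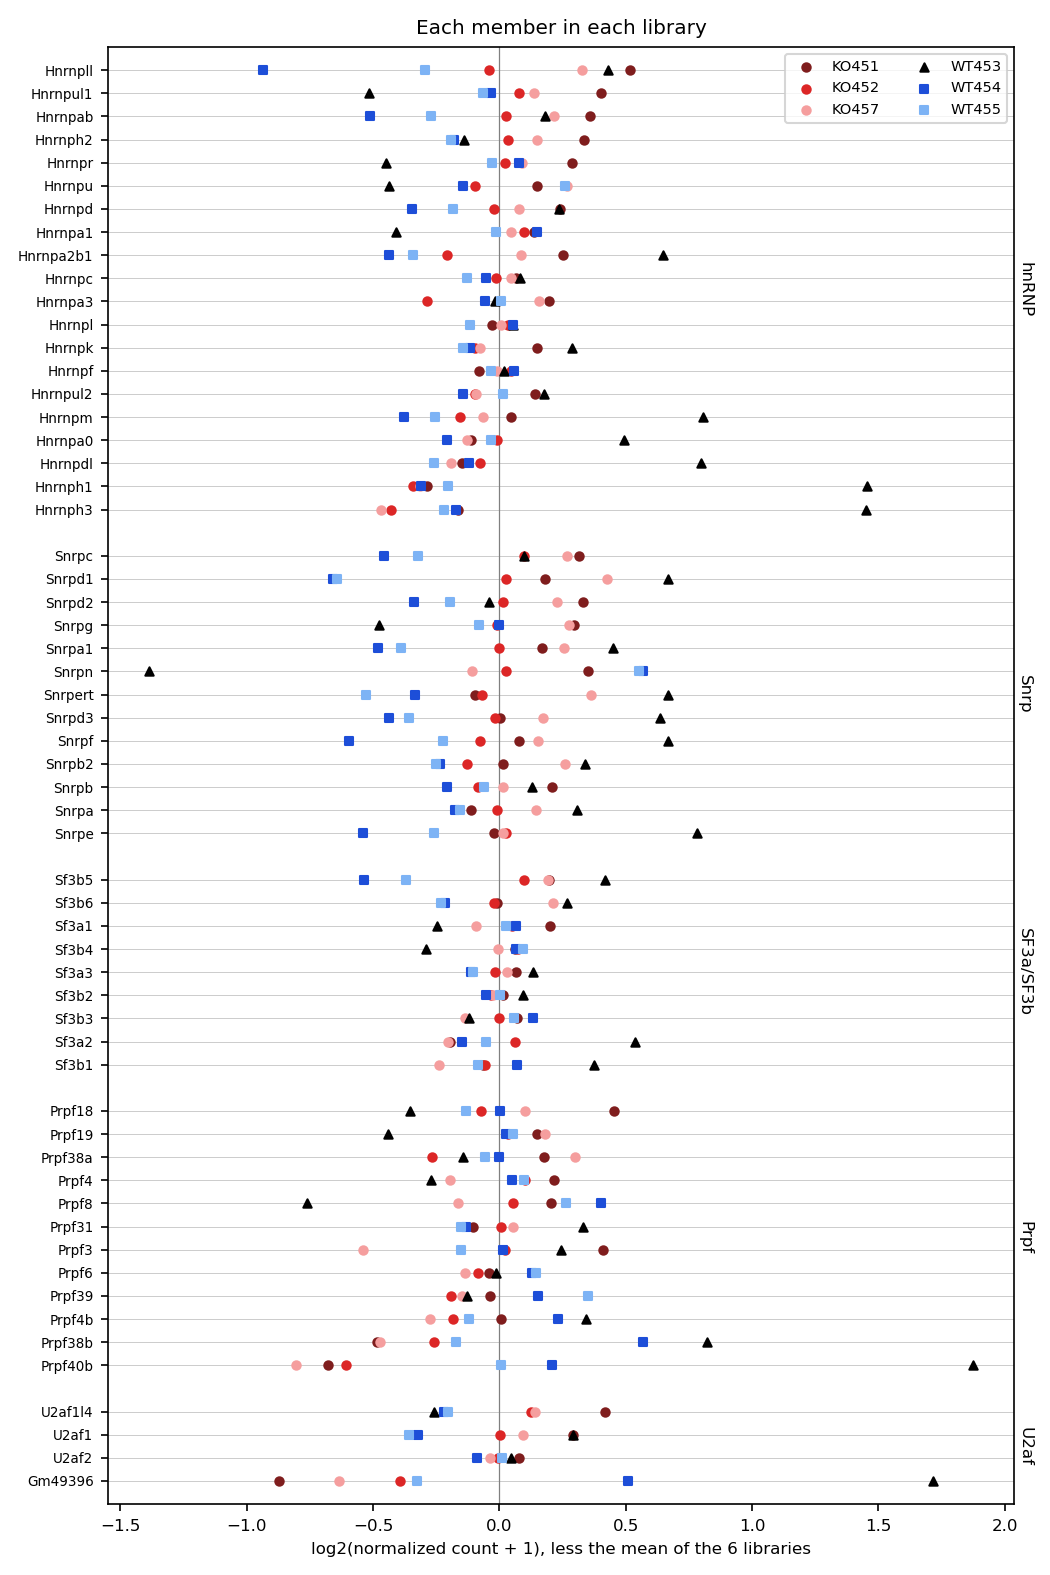
Log2(normalized count + 1) of each of 58 of the 59 genes in each library, less the mean of the 6 libraries for that gene (horizontal axis), by class and sorted by log2 fold change within it. Red points are knockout, blue squares and black triangles wild-type libraries, and the triangles of WT453 are the rightmost symbol in 29 genes and the leftmost in 13.

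The 13 Snrp genes had log2 fold changes above 0 in all 13, with a median of 0.13, against 47.7% above 0 among all genes tested, but none passed the test (limma adjusted p between 0.491 and 0.997). The 13 include the pseudogene Snrpert, whose log2 fold change of 0.13 is that median. The count changed with the scaling and with single libraries: 11 of 13 were above 0 after quantile normalization, 10 without KO457 and 8 without WT454 or without WT455. Without WT453, 12 of 13 were above 0 and the median was 0.45. WT454 was the lowest of the 6 libraries in 9 of the 13, and WT453 the highest in 8. The 10 proliferation markers, each with a positive log2 fold change, summed to 4919.6, 1797 and 2445 CPM in knockout and 2739, 790.4 and 1155 CPM in wild-type libraries, lowest in WT454 and WT455. Their part in the Snrp values was not tested.

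Snrpc encodes the U1 protein that steadies pairing of U1 with the splice donor (chromosome 17, 27838150 to 27851968, plus strand), and its RefSeq window is printed above. Its normalized counts were 2889, 2486 and 2799 in the knockout libraries and 2482, 1694 and 1855 in the wild-type libraries. All 3 knockout values lay above WT453, by a narrow margin in KO452, and well above WT454 and WT455. The log2 fold change was 0.46 ± 0.21, 1.37-fold, with a limma adjusted p of 0.491, and it was 0.62 without WT453 (adjusted p = 0.195). The other U1 protein gene in the list, Snrpa, had a log2 fold change of 0.02 ± 0.21. The U2 protein genes Snrpa1 and Snrpb2 had 0.28 ± 0.29 and 0.10 ± 0.24.

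The groups did not overlap in 1 of the 7 Sm ring genes, against 19.5% of all genes tested. This gene was Snrpd2 (chromosome 7, 19149722 to 19153542, plus strand), whose RefSeq window is also printed above. It had 3398, 2727 and 3163 in the knockout libraries and 2628, 2139.9 and 2360.5 in the wild-type libraries. KO452 came closest to the wild types, of which WT453 was the highest (0.38 ± 0.19, adjusted p = 0.509; 0.46 without WT453). Snrpb, which encodes SmB, had 6073, 4955 and 5309.6 in the knockout libraries and 5742, 4554 and 5031 in the wild-type libraries. The groups overlapped, with KO451 highest and WT454 lowest (0.09 ± 0.19). Snrpd3 had 4318, 4256 and 4867 in the knockout libraries and 6701, 3187 and 3369 in the wild-type libraries. WT453 was the highest library, the other wild types the lowest, and the knockouts lay between them (0.10 ± 0.31; 0.45 without WT453). Snrpe followed the same order, with 2261, 2336 and 2317 in the knockout libraries and 3949, 1578 and 1916 in the wild-type libraries (0.01 ± 0.34; 0.41 without WT453 and -0.02 after quantile normalization). Snrpd1 and Snrpf also had WT453 on top and WT454 and WT455 at the bottom, with log2 fold changes of 0.42 and 0.10, or 0.86 and 0.46 without WT453. In Snrpg WT453 was the lowest library, at 1455 (0.37 ± 0.21; 0.23 without WT453). For the 7 ring genes together the median log2 fold change was 0.10, and it was 0.45 without WT453.

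Snrpn, an imprinted relative of Snrpb that is mainly made in brain, had the fewest reads of the 59. Its normalized counts were 50.4, 40.0 and 36.4 in the knockout libraries and 14.4, 58.7 and 58.2 in the wild-type libraries. WT453 was the lowest library and the other wild types the highest, and the groups overlapped. On the log2 scale the difference was 0.18 ± 0.62 (limma adjusted p = 0.948) and turned to -0.47 without WT453. The pseudogene Snrpert ranged from 104 in WT455 to 239 in WT453, the latter also the highest library for Snrpe.

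The 9 genes of SF3a and SF3b, the subcomplexes that hold U2 snRNP on the branch point, had the smallest median absolute log2 fold change of the 5 classes, 0.10. None passed the test (limma adjusted p between 0.694 and 0.969), 5 had log2 fold changes above 0, the median was 0.05, and in all 9 the 95% interval lay within a 2-fold difference. The groups were apart in 0 of the 9, against 19.5% of all genes tested. Sf3b1, which clamps the branch point and is often mutated in myelodysplastic syndromes, had 11776, 11852 and 10423 in the knockout libraries and 15978, 12938 and 11601 in the wild-type libraries. WT453 was the highest and KO457 the lowest library, and WT455 lay among the knockouts (-0.24 ± 0.20, adjusted p = 0.694; -0.11 without WT453). Sf3b2 had the narrowest range of the 9, with 11104, 10733 and 10805 in the knockout libraries and 11742, 10598 and 11023 in the wild-type libraries. Its 95% interval was -0.43 to 0.37 on the log2 scale around -0.03. Sf3b5, a small subunit, had 1809.7, 1692 and 1808 in the knockout libraries and 2112, 1089 and 1223 in the wild-type libraries. The knockouts lay in a narrow band between WT453 above and the other wild types below (0.33 ± 0.28, adjusted p = 0.704). Without WT453 its log2 fold change was 0.62 with a limma adjusted p of 0.175. The SF3a genes Sf3a1, Sf3a2 and Sf3a3 had 0.10, -0.22 and 0.05.

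The 13 Prpf genes included Prpf38b and Prpf40b, 2 of the 3 genes with an unadjusted limma p under 0.05, but none passed after adjustment. Their median log2 fold change was -0.03, with 6 above 0 and 7 below. Prpf38b, a relative of the B complex protein gene Prpf38a, lies at chromosome 3, 108902805 to 108911727, minus strand and has its RefSeq window printed above. Its normalized counts were 1615, 1889 and 1628 in the knockout libraries and 4000.1, 3357 and 2009 in the wild-type libraries. All 3 knockout values lay below all 3 wild-type values, with KO452 and WT455 close together and WT453 and WT454 high. The log2 fold change was -0.81 ± 0.28, 1.76 times higher in wild-type spleens, and the limma p was 0.0228 before and 0.387 after adjustment. In the authors' deposited table its FDR was 0.0489, the only FDR under 0.05 among the 59 (1.69%), against 4.3% of all genes tested. Without WT453 the log2 fold change was -0.61, with an adjusted p of 0.297. Prpf38a itself had 0.14 ± 0.22.

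Prpf40b, a U1-associated protein gene (chromosome 15, 99295087 to 99317018, plus strand), had the lowest log2 fold change of the 59. Its normalized counts were 59.0, 62.0 and 54.0 in the knockout libraries and 351, 110.1 and 95.6 in the wild-type libraries. Every knockout value lay below every wild-type value, and WT453 was more than 3 times the next library. The log2 fold change was -1.40 ± 0.53, the limma p was 0.0334 before and 0.42 after adjustment, and the FDR in the authors' deposited table was 0.0503. Wild-type values were thus 2.63-fold higher, and without WT453 the log2 fold change was -0.81 (adjusted p = 0.238).

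Prpf8, the core protein of the catalytic centre, had 11794, 10646 and 9134 in the knockout libraries and 6043, 13549 and 12298 in the wild-type libraries. WT453 was the lowest library and the other wild types the highest, so the log2 fold change of 0.06 ± 0.33 turned to -0.30 without WT453 and to -0.02 after quantile normalization. Prpf19, the ubiquitin ligase of the complex named after it, had 4337, 4006 and 4441 in the knockout libraries and 2884, 3989 and 4065 in the wild-type libraries. WT453 was again low and the other 5 libraries lay between 3989 and 4441 (0.24 ± 0.21, adjusted p = 0.702, and 0.08 without WT453). Prpf18, which acts at the second catalytic step, had 3233, 2239 and 2528 in the knockout libraries and 1847, 2362 and 2154 in the wild-type libraries. KO451 was the highest library and the groups overlapped (0.32 ± 0.22, adjusted p = 0.607, and 0.22 without WT453). Prpf6, a bridging protein of the tri-snRNP, had 2705, 2628 and 2535 in the knockout libraries and 2763, 3048 and 3083 in the wild-type libraries. All knockout values were lower than all wild-type values, but the difference was small (-0.18 ± 0.17, adjusted p = 0.723). The U4/U6 protein genes Prpf3, Prpf4 and Prpf31 had log2 fold changes of -0.07, 0.08 and -0.03, the kinase gene Prpf4b -0.30, and the U1-associated Prpf39 -0.25.

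Of the 4 U2af rows, the groups overlapped in U2af1 and U2af2 and lay apart in both rows of the U2af1l4 locus, in opposite directions. U2af2, which binds the pyrimidine tract, had 9177, 8660.0 and 8491 in the knockout libraries and 8989, 8177 and 8767 in the wild-type libraries. The groups overlapped and the 95% interval of the log2 fold change was -0.37 to 0.42 around 0.02, or -0.03 after quantile normalization. U2af1, which reads the acceptor AG, had 3429, 2810.0 and 2994 in the knockout libraries and 3434, 2239 and 2185 in the wild-type libraries. KO451 and WT453 were nearly equal at the top and WT454 and WT455 lowest (0.26 ± 0.24, adjusted p = 0.718; 0.47 without WT453).

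U2af1l4 encodes U2AF26, a shorter relative of U2AF1 that can take its place in the dimer (chromosome 7, 30563301 to 30565365, plus strand). It had normalized counts of 272, 222 and 224 in the knockout libraries and 170.1, 175 and 177 in the wild-type libraries. The wild types lay within a narrow range and all 3 knockouts above it. This gave a log2 fold change of 0.45 ± 0.26, with a limma adjusted p of 0.538, and 0.44 without WT453. Gm49396 (chromosome 7, 30563344 to 30567960, plus strand) had 147, 205 and 173 in the knockout libraries and 889, 384 and 215 in the wild-type libraries. All knockout values were lower than all wild-type values, KO452 and WT455 nearly meeting, and WT453 was far above the rest. Its log2 fold change was -1.27 ± 0.51, the limma p 0.04 before and 0.433 after adjustment, and the FDR in the authors' deposited table was 0.0501. Without WT453 it was -0.73.

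The opposite directions of these 2 rows concern gene models that share exons. Of the 3234 exonic bases of Gm49396, 1268 are also exonic in Igflr1 and 1086 in U2af1l4. These 1086 are most of the 1656 exonic bases of U2af1l4, and Psenen overlaps the start of both models on the other strand. Reads in shared exons cannot be told apart, and how the authors assigned them is not given in the sources used here, so both values are uncertain. The ratio of Gm49396 to U2af1l4 was 0.539, 0.923 and 0.773 in knockout and 5.23, 2.20 and 1.22 in wild-type libraries. The ratio was lower in all knockout libraries than in all wild types, which varied over 4-fold among themselves. The sum of both rows was 419, 427 and 398 in knockout and 1059.6, 559 and 392 in wild-type libraries, so the summed level of the groups overlapped.

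**Figure D4:**
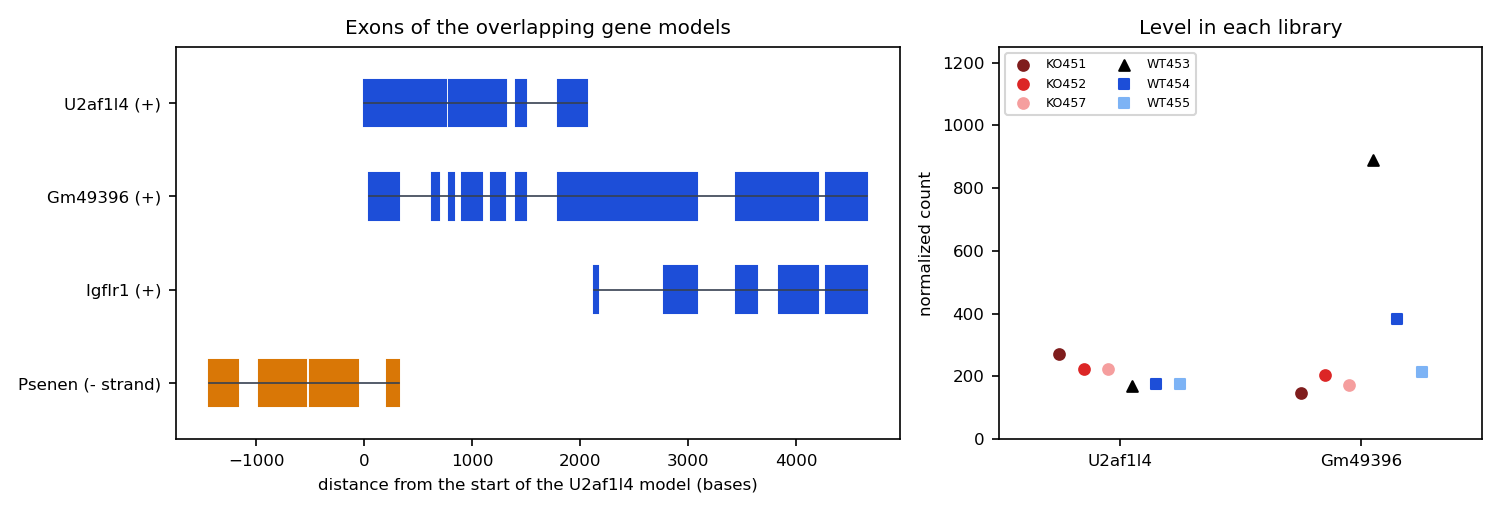
Left, merged exons of the 4 GENCODE gene models at the U2af1l4 locus, as distance in bases from the start of U2af1l4 (blue, plus strand; orange, minus strand). Right, normalized counts of U2af1l4 and Gm49396 in each library: the 3 knockout points are above the wild types for U2af1l4 and below them for Gm49396, where WT453 reaches 889.

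The limma test called 0 of the other splicing genes measured too. The 5 lists set beside the 59 genes were U snRNP and Sm-like proteins with other symbols (20 tested of 21), other spliceosome proteins (41 of 41), SR proteins with their kinases (18 of 18), other proteins of hnRNP particles (20 of 20) and the minor spliceosome (9 of 9). No gene of the lists passed the limma test after adjustment, and at an unadjusted p under 0.05 there were 1, 2, 3, 1 and 2 genes, where 11.0% of all genes tested were at that level. The authors' deposited table gave an FDR under 0.05 to 0, 1, 2, 0 and 1 genes of the lists, and to 4.3% of all genes tested. Median log2 fold changes were 0.12, -0.06, -0.08, 0.11 and -0.02, or 0.38, -0.03, 0.17, 0.13 and -0.07 without WT453. The smallest p belonged to Srrm2, a large SR-related protein of the catalytic spliceosome, with 4428, 4308 and 3222 in the knockout libraries and 11199, 7846 and 6389 in the wild-type libraries. Its knockout values all lay below its wild-type values (-1.06 ± 0.26, limma adjusted p = 0.344; -0.84 without WT453). The 2 kinases below phosphorylate SR proteins, and both had the same order. Clk1 had 2442, 2650.0 and 1971 in the knockout libraries and 6950.0, 4246 and 3023 in the wild-type libraries (-0.94 ± 0.32, adjusted p = 0.382). Srpk1 had 2057, 2158 and 2170.2 in the knockout libraries and 3861, 3200.5 and 2813 in the wild-type libraries (-0.62 ± 0.19, adjusted p = 0.356). Each knockout value was lower than each wild-type value in both genes. Rbm5, a splicing regulator, and Cirbp, a cold-inducible RNA-binding protein, also had lower values in every knockout (-0.85 and -0.65).

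Among higher values in these lists, Snrnp25 of the minor spliceosome had 1169.7, 947 and 936 in the knockout libraries and 698, 476 and 592 in the wild-type libraries. The knockout values were all above the wild-type values (0.80 ± 0.23, limma adjusted p = 0.354; 0.93 without WT453). Usp39, a tri-snRNP protein gene, had 3555, 2193 and 2707 in the knockout libraries and 1693, 1845 and 1962 in the wild-type libraries (0.59 ± 0.23, adjusted p = 0.422). Its groups did not overlap either, and KO451 was the highest library. Ppih, a cyclophilin of the tri-snRNP (0.49), Srsf3, an SR protein gene (0.41), and the cold-inducible Rbm3 (0.40) had higher means in knockout spleens with overlapping groups. Of the remaining genes taken by the same rule, Fubp3, Snw1, Plrg1, Zcrb1 and Srsf1 had log2 fold changes of 0.81, 0.38, 0.36, 0.24 and 0.17. Sart1, Txnl4a, Matr3, Snrnp48 and Zrsr2 had -0.46, -0.16, -0.26, -0.93 and -0.63.

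WT453 was often the extreme library. It was the highest of the 6 libraries in 29 of the 59 (49.2%, against 31.7% of all genes tested) and the lowest in 13 (22.0%, against 25.8%). KO452 was the highest in 0 of the 59, against 10.4% of all genes, and WT454 the lowest in 20 (33.9%, against 16.2%). By class, WT453 was the highest library in 9 of 20 hnRNP, 8 of 13 Snrp, 6 of 9 SF3, 4 of 13 Prpf and 2 of 4 U2af genes. It exceeded the mean of the other wild types by more than 1 on the log2 scale in 12 genes: Prpf40b (1.77), Hnrnph1 (1.71), Hnrnph3 (1.65), Gm49396 (1.63), Snrpd1 (1.32), Snrpe, Hnrnpm, Snrpert, Snrpf, Hnrnpll, Hnrnpa2b1 and Snrpd3. It was lower by more than 1 in Snrpn (-1.95) and Prpf8 (-1.09). Of genes with a mean of at least 100, 14.5% and 15.9% were that far above and below. The median absolute distance of WT453 from the other wild types was 0.472 over the 59 genes and 0.623 over genes with a mean of at least 100. Over the 59 genes, WT454 and WT455 lay 0.0973 apart. The genes listed by their distance were picked after their values were seen.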

How the data were processed

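The libraries were made from total RNA with an Illumina mRNA kit, per the labels. FastQC 0.11.5, STAR 2.5.3a and StringTie 1.3.1c, besides DESeq and the build GRCm38, are named per the submitters' processing notes, which give no roles. How reads were counted, on which annotation and with which strand setting, was not given in the sources. Each deposited value is a log2 of the read count over a size factor of its library, plus 1. This was found from the numbers themselves: undoing the log2 returned whole reads, within 0.001, for 100% of them. Beside these, the deposited table holds the authors' log2 fold change, p-value and FDR, with no test stated. Names of knockout columns carry a suffix that is not explained.

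Limma 3.58.1 (R 4.3.3) with an intensity trend and genotype as the only term was fitted to the deposited log2 values of the 22071 genes with a mean normalized count of at least 1, and p-values were adjusted over all of them by Benjamini-Hochberg (threshold 0.05). Genes with few reads have their fold changes understated on this scale. Each mouse is 1 library, so p-values reflect variation among these mice, and no batch is stated in the labels. The fit was also run on simulated counts, which were drawn without an outlying library such as WT453, so that run does not give its power or error here. Exons, positions and overlaps came from GENCODE M21 (GRCm38), where 26404 of 26452 identifiers and all 59 genes were found, and 25 of the 59 share exonic bases with another gene. The rule for named genes takes any past the threshold or under an FDR of 0.05 in the authors' deposited table, the 8 smallest p, the 2 highest means and both extremes of log2 fold change in each class, the 3 widest ranges, and U2af1, U2af2, Sf3b1, Prpf8 and Snrpn. Of each other splicing list it takes the 2 smallest p in each direction. Any other gene was named after its values were seen. The values of 1 gene are in the counts but are not reported here. The members and lists were chosen with earlier results of these data known. Alternatives were another pseudocount, other filters, quantile normalization, each library left out, genes without exon overlap and, chosen after seeing the data, limma voom on the recovered reads with and without library quality weights, and the list without Snrpert and Gm49396.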

Additional observations from a re-analysis of the deposited data

How the results depend on the processing

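None of the 59 genes passed the adjusted threshold in any of the 14 alternatives, while the number at an unadjusted limma p under 0.05 ranged from 0 to 16. It was 16 without WT453 (27.1%, against 18.2% of all genes and 24.7% of those with a mean of at least 100). With voom and quality weights it was 12 (20.3%, against 22.6% and 28.9%). Both settings give WT453 less or no weight. The median log2 fold change of the 59 stayed above 0 in these settings, between 0.014 without WT454 and 0.12 with voom and quality weights (0.024 after quantile normalization). All of them used the deposited size factors or quantile normalization, and scaling by total reads was not tried. Of the total reads in genes, the 59 held 0.958% to 1.002% in knockout and 1.004% to 1.15% in wild-type libraries. Groups did not overlap in 10 of the 59 and in 9 of 57 without Snrpert and Gm49396 (19.5% of all genes and 24.0% of those with a mean of at least 100). After quantile normalization the count was 15 (25.4%, against 19.2% and 24.4%). It was 11 to 33 when 1 library was left out: 33 without WT453 (55.9%, against 40.3% and 52.3%) and 18 without KO452 (30.5%, against 29.9% and 36.0%). Genes called over the whole table numbered 2, 1 with voom, 4 with voom and quality weights, and 0 to 2 when 1 library was left out, 0 for each library except WT453. Of 288 values of the 24 named genes under other settings, 269 kept their direction and 19 turned, none past the threshold. After quantile normalization Hnrnpa2b1 turned to -0.044, Prpf8 to -0.022, Snrpe to -0.024 and U2af2 to -0.033. With voom and quality weights Prpf8 turned to -0.28 and Snrpn to -0.44. Leaving out 1 library gave log2 fold changes of -0.11 to 0.43 for Hnrnpa2b1, -0.30 to 0.28 for Prpf8, -0.064 to 0.0094 for Sf3b2, -0.087 to 0.45 for Snrpd3, -0.26 to 0.41 for Snrpe, -0.47 to 0.50 for Snrpn and -0.017 to 0.051 for U2af2. The cause of these shifts was not tested. The planned count-model alternatives were not run, and limma voom on the recovered reads was run in their place. No paired analysis was possible because the groups share no animal numbers. With 3 mice per group, the median standard error of the log2 fold change over the 59 genes was 0.22, above their median absolute log2 fold change of 0.18.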

Other observations

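Srsf5, Clk4 and Snrnp70, 3 splicing genes outside the 59, had WT453 as their highest library. Srsf5, an SR protein gene, had normalized counts of 5509.6, 5584 and 4988 in knockout and 18228, 4844 and 5339 in wild-type libraries. Clk4, a kinase of SR proteins, had 903, 803 and 750.2 in knockout and 4093, 1343 and 983 in wild-type libraries. The groups overlapped in Srsf5 (log2 fold change -0.54, and 0.07 without WT453) and did not in Clk4 (-1.10, and -0.49 without WT453), and neither passed the test (limma adjusted p = 0.716 and 0.478). Snrnp70, the U1 protein gene outside the symbols used here, had 7016 in WT453 and 2628 to 3983 in the other 5 libraries. These 3 genes were chosen after their values were seen, and the part of WT453's marker levels in them was not tested.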
